A study of Mus musculus with 3 samples.

Results

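The genes described here encode the subunits of the mouse proteasome, the protease that degrades proteins tagged with ubiquitin. Members were the genes whose symbols begin with Psma, Psmb, Psmc or Psmd followed by a number, found by matching the accession of each array probe to a RefSeq symbol. There were 39 such genes of 20656 genes named on the arrays, and they were measured by 47 probes. The samples were J1 mouse embryonic stem cells (mESCs, a line of strain 129S4/SvJae), grown without feeder cells on gelatin in medium that held the cytokine LIF (leukemia inhibitory factor) at 1000 U/mL and treated with 1 µM PD0325901 (PD), an inhibitor of the kinase MEK, for 24 h. The 3 samples were replicates of this 1 group, and each RNA was hybridised in 1 colour to its own array. The study set PD-treated against control cells, but cells without PD were not analysed here, so no effect of PD was computed and no test between conditions was made. J1 is 1 cell line, and every sample shares LIF as well as PD.

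The proteasome consists of a barrel-shaped core particle and regulatory particles that cap its ends. The outer rings of the core are made of alpha subunits, which gate the entry, and the inner rings are made of beta subunits, some of which cut peptide bonds. The regulatory particle has a base, with a ring of ATPases that unfold the substrate, and a lid, which removes ubiquitin. In cells exposed to interferon gamma and in immune cells, the catalytic subunits encoded by Psmb6, Psmb7 and Psmb5 can be replaced by those of Psmb9, Psmb10 and Psmb8, which gives the immunoproteasome, known for making peptides for MHC class I molecules. Human embryonic stem cells are known for high proteasome activity.

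The level of a gene was the log2 of its processed signal minus that of the 75th percentile of the array, so a level of 0 is a signal equal to that percentile. Values are the mean ± SD over 3 arrays throughout, and detection on an array means that the spot was flagged as well above background. Levels of different probes depend on the probe sequence as well as on the RNA, so genes were not tested against each other, and fewer cells with a transcript could not be told apart from less transcript per cell. Of the 39 genes, 38 (97.4%) were detected on all 3 arrays, beside 72.7% of all named genes, and 35 (89.7%) lay above the 75th percentile on all 3 arrays, beside 40.8%. The exceptions on the second count were Psmb8, Psmb9, Psma8 and Psmb11, of which Psmb11 was the undetected gene. All 31 genes of the constitutive core and the regulatory particle were above that percentile.

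**Figure D1:**
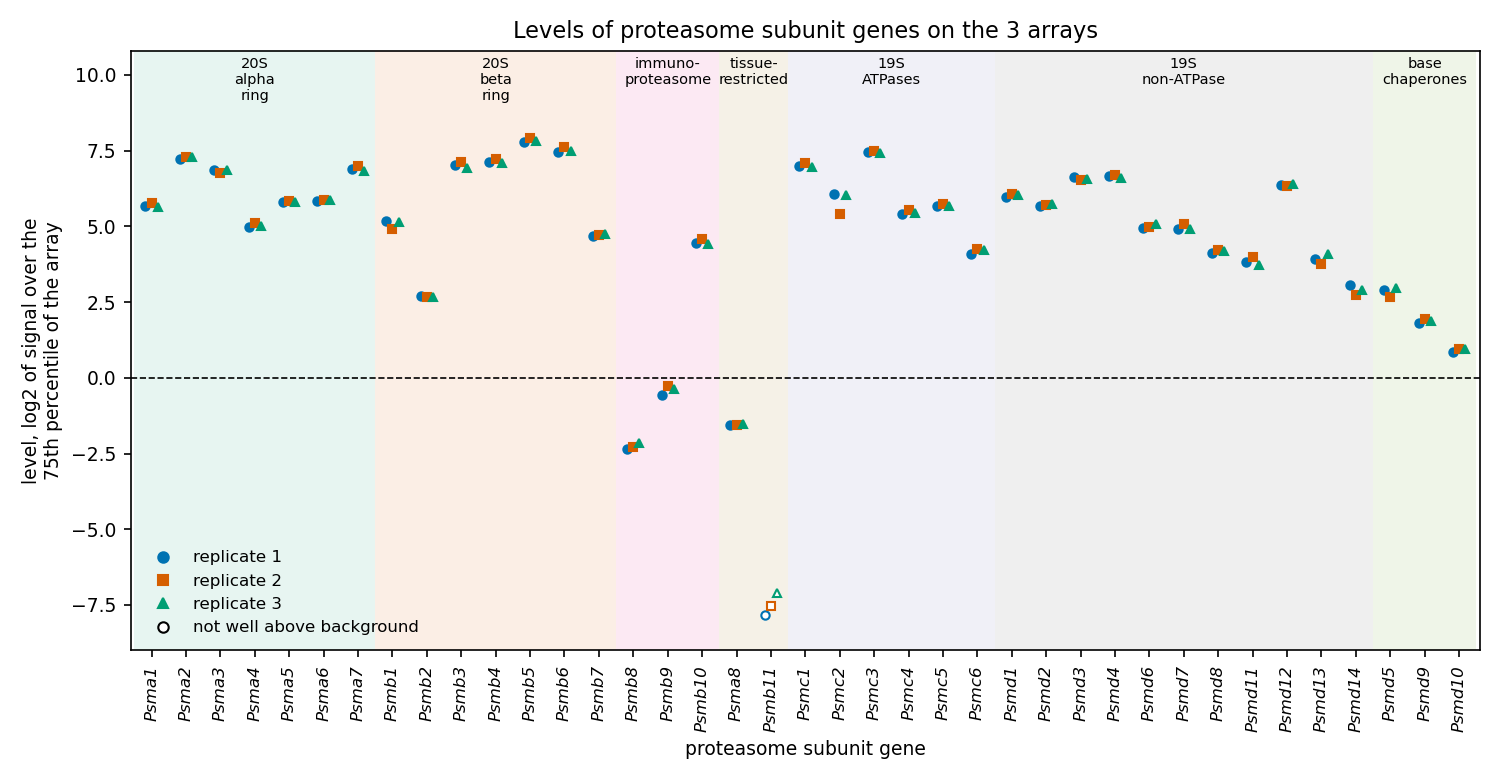
Level of each proteasome subunit gene (log2 of the signal over the 75th percentile of the array, dashed line at 0), with 1 point per array and shaded bands for the roles. The 31 genes of the constitutive core and regulatory particle sat above the line on all arrays, whereas Psmb8, Psmb9 and Psma8 sat below it and Psmb11 (open points) was not well above background.

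The arrays had 62976 spots each, and the 75th percentiles of the signal were 551, 511 and 527 for replicates 1, 2 and 3. The lowest signal well above background was between 10.1 and 11.4. On replicate 2, 187 spots were marked as non-uniform by the scanner software, against 25 and 8 on the other arrays, and 6 of 48 blocks of that array held at least 10 of them. Of the genes described here, only Psmc2 was represented by a probe in such a block. All 8 mESC markers on a fixed list were detected, with summed signals of 291570 to 314300, among them Pou5f1 at a level of 4.56 ± 0.42, Nanog at 0.39 ± 0.05 and Esrrb at 6.28 ± 0.10. Fibroblast markers were detected in 4 of 8 cases with summed signals of 1253 to 1376, among them Thy1 at 0.24 ± 0.09, Col1a1 at -1.23 ± 0.04 and Col1a2, whose spot lay in such a block, at -0.31 ± 0.23. Col5a2, Lum and Postn were detected on 0 arrays.

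All 7 genes of the alpha ring, Psma1 to Psma7, were detected, with a median level of 5.86. The lowest mean was that of Psma4 (5.02 ± 0.07) and the highest that of Psma2 (7.26 ± 0.03). The smallest SDs of all detected members were found here, at 0.012 in Psma6 (5.86) and 0.017 in Psma5 (5.83). Psma1 (5.70 ± 0.07), Psma3 (6.83 ± 0.07) and Psma7 (6.90 ± 0.10) lay between the ends of that range.

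The 7 constitutive genes of the beta ring, Psmb1 to Psmb7, were likewise all detected and had a median level of 7.02. Psmb1 (5.07 ± 0.13), Psmb2 (2.68 ± 0.02), Psmb3 (7.02 ± 0.11) and Psmb4 (7.15 ± 0.07) encode subunits without a catalytic site. Psmb2 was the dimmest probe of the constitutive core, at the 80.9th percentile of named genes.

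The catalytic subunits of the beta ring are those of Psmb6 (β1, which cuts after acidic residues), Psmb7 (β2, after basic residues) and Psmb5 (β5, after hydrophobic residues). The levels of Psmb6 were 7.47, 7.63 and 7.49 on replicates 1, 2 and 3. Psmb7 gave 4.67, 4.71 and 4.74. Psmb5 gave 7.79, 7.92 and 7.82, the highest mean of all members (7.84 ± 0.07, the 99.3rd percentile of named genes). On these probes the arrays differed by at most 0.16 log2 units. A second, dimmer probe of Psmb5 (6.01 ± 0.11) had a range of 0.20.

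The immunoproteasome counterparts did not share 1 position on the arrays. Psmb9, which takes the β1 site, had signals of 369, 421 and 404, or levels of -0.58, -0.28 and -0.38 (-0.41 ± 0.15). Psmb8, which takes the β5 site, had signals of 106.9, 105.3 and 119.4, or levels of -2.36, -2.28 and -2.14 (-2.26 ± 0.11). Both genes were well above background on every array, with signals above the lowest spot called so. They stood at the 55.4th and the 43.1st percentile of named genes. Psmb10, which takes the β2 site, had signals of 12114, 12375 and 11369, or levels of 4.46, 4.60 and 4.43 (4.5 ± 0.09, the 92.9th percentile of named genes). Psmb10 was thus the member of the trio that lay above the 75th percentile on all arrays. The signal of its constitutive counterpart Psmb7 was 14036, 13356 and 14081, while that of Psmb6 was 94805 to 101210 and that of Psmb5 was 118620 to 123420. These pairs are set side by side, with no test, because each gene was read by its own probe.

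**Figure D2:**
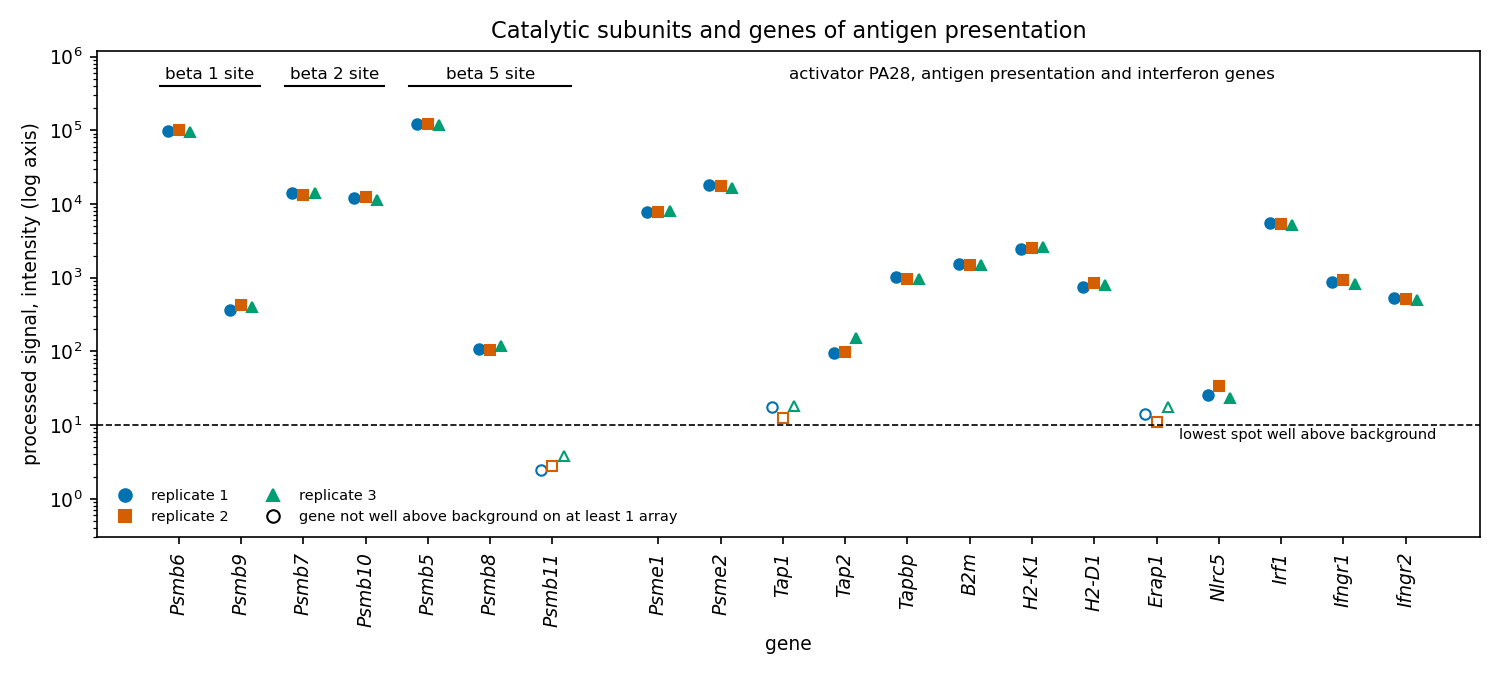
Processed signal (intensity, log axis) of the catalytic core subunits, grouped by the site they occupy, and of activator and antigen presentation genes, with 1 point per array. Psmb10 lay near Psmb7, at 11369 to 12375, while Psmb9 and Psmb8 had signals of 369 to 421 and 105.3 to 119.4; open points mark genes not well above background on at least 1 array.

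Psmb8 and Psmb9 lie beside the transporter genes of the MHC region in the order Psmb9, Tap1, Psmb8 on chromosome 17, with Tap1 as the 1 coding gene between them, and Psmb10 is on chromosome 8. Tap1, a subunit of the transporter that carries peptides to MHC class I molecules, was detected on 2 of 3 arrays, with signals of 17.9, 12.6 and 17.9, and its spot lay in a block of replicate 2 with non-uniform spots, as did those of H2-K1 and H2-D1. Its partner Tap2 was detected on all arrays, with signals of 93.8, 98.2 and 152. Of 12 genes of antigen presentation and interferon response, 10 were detected on all arrays, and the other exception was Erap1, a peptidase that trims such peptides, also detected on 2 arrays. The level of Irf1, an interferon-responsive transcription factor, was 3.34 ± 0.04 on its brighter probe. Of its 2 probes, only 1 was detected on all arrays. That of Nlrc5, an activator of MHC class I genes, was -4.29 ± 0.32. The interferon gamma receptor genes Ifngr1 and Ifngr2 gave 0.74 ± 0.13 and -0.04 ± 0.06. The MHC class I chain B2m gave 1.5 ± 0.04, Tapbp gave 0.89 ± 0.03, and H2-K1 and H2-D1, whose family members are alike in sequence and may share signal, gave 2.24 ± 0.08 and 0.58 ± 0.13.

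Since immune cells use Psmb8, Psmb9 and Psmb10, a list of 10 blood and immune markers was read beside them. Of these, 6 were detected on all arrays, with summed signals of 10313 to 11486 over the list, most of it from Itgam at 8215 to 9320. Ptprc, the pan-leukocyte marker, had signals of 12.2, 15.3 and 13.5. Cd3e, a CD3 chain that associates with the T cell receptor, was detected with signals of 1568, 1637 and 1516, above the 75th percentile on all arrays. By contrast, Cd3g, of the same complex, was detected on 1 array. Csf1r, with signals of 455.5, 249.3 and 421.4, and Cd74, with 86.5, 103 and 103, were detected on all arrays, and Itgax and H2-Aa (its spot in a block of replicate 2 with non-uniform spots) on 0. The part of other cells in the immunoproteasome signals was not tested.

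The promoter windows of the catalytic genes show what lies ahead of each start. RefSeq windows (build GRCm38.p6) were matched for 32 of the 39 genes and not for Psma8, Psmb1, Psmb2, Psmb7, Psmc3, Psmd3 and Psmd7. The 250 bases before the start are printed 5′ to 3′ in the direction of the gene, with matches to any of the motifs searched in capitals.
Psmb8, chr17:34197945-34198194, plus strand: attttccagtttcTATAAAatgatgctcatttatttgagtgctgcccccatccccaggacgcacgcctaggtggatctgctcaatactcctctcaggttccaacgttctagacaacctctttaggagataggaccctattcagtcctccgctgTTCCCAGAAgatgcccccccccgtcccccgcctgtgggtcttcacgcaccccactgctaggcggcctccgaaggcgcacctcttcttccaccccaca
Psmb9, chr17:34187331-34187580, minus strand: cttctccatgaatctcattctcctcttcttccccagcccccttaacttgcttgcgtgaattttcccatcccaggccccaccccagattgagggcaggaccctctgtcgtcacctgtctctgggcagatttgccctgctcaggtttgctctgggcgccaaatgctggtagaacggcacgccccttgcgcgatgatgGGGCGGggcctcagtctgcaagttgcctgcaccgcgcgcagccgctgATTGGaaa
Psmb10, chr8:105938393-105938642, minus strand: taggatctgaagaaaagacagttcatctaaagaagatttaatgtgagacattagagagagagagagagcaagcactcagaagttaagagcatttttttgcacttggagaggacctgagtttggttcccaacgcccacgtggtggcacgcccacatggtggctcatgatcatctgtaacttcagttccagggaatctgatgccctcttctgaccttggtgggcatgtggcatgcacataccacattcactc
Psmb5, chr14:54617996-54618245, minus strand: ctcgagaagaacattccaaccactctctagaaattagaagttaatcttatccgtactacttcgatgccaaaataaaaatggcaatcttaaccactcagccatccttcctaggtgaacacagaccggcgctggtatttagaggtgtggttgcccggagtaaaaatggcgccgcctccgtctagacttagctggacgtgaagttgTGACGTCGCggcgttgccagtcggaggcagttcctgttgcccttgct
Psmb6, chr11:70525107-70525356, plus strand: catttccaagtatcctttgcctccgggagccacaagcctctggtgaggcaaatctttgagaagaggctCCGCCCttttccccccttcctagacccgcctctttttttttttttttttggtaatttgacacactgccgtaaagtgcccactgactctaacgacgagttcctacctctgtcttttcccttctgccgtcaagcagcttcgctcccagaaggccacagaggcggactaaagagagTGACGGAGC

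Motifs were searched on both strands of the 300-base windows, which hold 250 bases before and 50 after the start. The gamma-activated site TTCNNNGAA, known from promoters that respond to interferon gamma, was found in 2 of 32 windows (6.25%, against 9.55% of 27025 windows of all genes), those of Psmb8 and Psmd2. In Psmb8 it read TTCCCAGAA at -97 to -89, and a TATA box TATAAA stood at -237 to -232. The antioxidant response element core TGACNNNGC, known from binding of Nfe2l1 and Nfe2l2, was found in 5 windows (15.6%, against 14%), those of Psmb5, Psmb6, Psmc6, Psmd9 and Psmd12. It read TGACGTCGC at -47 to -39 in Psmb5 and TGACGGAGC at -9 to -1 in Psmb6. The GC box GGGCGG was found in 19 windows (59.4%, against 38.2%), among them those of Psmb6 and Psmb9. The CCAAT box was found in 13 (40.6%, against 41.1%), among them that of Psmb9, and the TATA box in 4 (12.5%, against 15.7%). The interferon regulatory factor element GAAANNGAAA was found in 3 (9.38%, against 3.99%), those of Psmb3, Psmd4 and Psmd9. None of these letters stood in the window of Psmb10, which lies ahead of the start that the RefSeq table lists, and another start of the gene may be the one in use. The median GC content was 56.2% in the members and 52.8% in all genes, a match is not a bound site, and these shares were not tested.

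A pair of members is known from single tissues. Psma8, the alpha subunit used in male germ cells, was detected with levels of -1.54, -1.55 and -1.51 (-1.53 ± 0.02) and signals of 189, 175 and 185. The arrays thus lay close together at the 47.7th percentile of named genes. All 4 germ cell markers read beside it were detected, with summed signals of 20589 to 25858, most of it from Stra8 at 18965 to 24173. Sycp1 and Sycp3, which form the synaptonemal complex of meiosis, gave -0.88 ± 0.07 and 1.25 ± 0.03, and their relation to Psma8 was not tested.

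Psmb11, the β5 subunit of thymic cortical epithelium, was flagged as well above background on 0 arrays, with signals of 2.44, 2.79 and 3.85 against negative control medians of 2.42, 2.75 and 2.48. The 95th percentiles of the 308 negative control spots were 2.74, 12.7 and 2.82, so the signal on replicate 3 lay above that of its own array and the other 2 did not. It lies next to Psmb5 on chromosome 14 with no coding gene between them. Of 4 thymic markers 3 were detected, with summed signals of 1426 to 1757 over the list. Most of it came from Ccl25, with 1496, 1194 and 1281, and Prss16 and Ly75 were detected at levels of -1.23 ± 0.06 and -4.50 ± 0.22. Foxn1, the factor that defines thymic epithelium, was detected on 0 arrays.

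All 6 ATPase genes of the base were detected, with a median level of 5.77. Psmc6 had the lowest mean (4.19 ± 0.07) and Psmc3 the highest (7.46 ± 0.04), with Psmc1 at 7.01 ± 0.07, Psmc4 at 5.47 ± 0.06 and Psmc5 at 5.69 ± 0.04. Psmc2 differed from them in its spread and is described with it.

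The 11 non-ATPase genes of the base and lid were all detected, with a median level of 5.0. Psmd1 (6.03 ± 0.04) and Psmd2 (5.71 ± 0.03) encode the large scaffolds of the base, and Psmd4 (6.66 ± 0.05), the brightest of this group, encodes a ubiquitin receptor. Psmd14, the metalloprotease that cuts ubiquitin chains from the substrate, had the lowest mean at 2.91 ± 0.15. The other lid genes were Psmd3 (6.57 ± 0.05), Psmd6 (5.0 ± 0.07), Psmd7 (4.98 ± 0.10), Psmd8 (4.18 ± 0.06), Psmd11 (3.84 ± 0.14), Psmd12 (6.38 ± 0.03) and Psmd13 (3.93 ± 0.17). Psmd5 (2.84 ± 0.16), Psmd9 (1.88 ± 0.06) and Psmd10 (0.92 ± 0.05) are chaperones for the assembly of the base rather than parts of the finished particle. They were also above the 75th percentile on all arrays. Psmd9 is among the 35 genes above it through its brighter probe only, since its second probe gave -0.09, -0.03 and -0.14.

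The median SD of the 38 detected genes over the arrays was 0.068 log2 units, beside 0.074 for all detected named genes. Spread falls with brightness on these arrays, and 32 of the 38 genes were in the brightest of 4 equal groups of genes ranked by mean level, whose median SD was 0.055. Of those 32, 11 had an SD under that median. None of the 38 had a range over 1 log2 unit, beside 0.987% of all detected named genes. The highest and lowest array differed by more than 1.96 times the combined scanner error of the spots in 1 gene (2.63%), Psmc2, beside 6.97%. The scanner error of a member spot was 10% of its signal at the median. Without replicate 2 the median SD of the members was 0.033, an SD over 2 arrays that cannot be set against the medians above. The same median for all detected named genes was not computed.

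**Figure D3:**
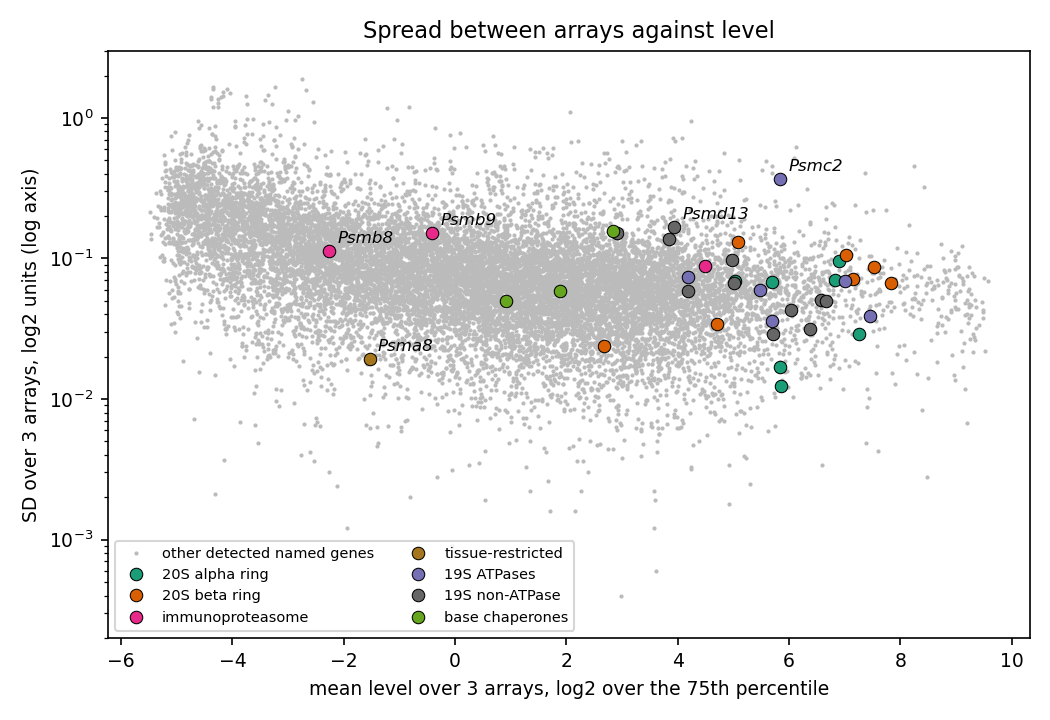
SD over the 3 arrays (log2 units, log axis) against mean level (log2 over the 75th percentile) for the detected proteasome subunit genes, coloured by role, and for the other detected named genes (grey). Most members lay at the bright end with SDs under 0.1, and Psmc2 stood apart with an SD of 0.37.

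The SD was at least 0.1 in 9 of the 38 detected genes (23.7%). The share of all detected named genes at this limit was not counted. The 95th percentile of the SD was 0.157 in the members, 0.293 in all detected named genes and 0.158 in the brightest group. Psmc2, an ATPase of the base, had the largest at 0.37, with levels of 6.08, 5.42 and 6.04 and signals of 37171, 21904 and 34584. Replicate 2 was the low one, and the spot lay in a block of that array with non-uniform spots. The second probe of Psmc2, outside these blocks, gave 5.66, 5.72 and 5.59 (5.65 ± 0.06), so that replicate 2 was the highest array there. Without replicate 2 the SD of the first probe was 0.028. The part of that block in the low value was not tested, and no spot of any member was flagged as an outlier or saturated.

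The next in order of SD were Psmd13, Psmd5, Psmd14 and Psmb9. Psmd13, a lid subunit, gave 3.92, 3.77 and 4.10. Psmd5 gave 2.92, 2.66 and 2.95, with replicate 2 apart from the others. Psmd14 gave 3.06, 2.75 and 2.92. Replicate 2 was the lowest array in these 3 genes, whereas replicate 1 was the lowest in Psmb9. Psmd11, Psmb1, Psmb8 and Psmb3 made up the remainder, with SDs of 0.11 to 0.14. Without replicate 2 the SD was lower in 8 of these 9 genes, at 0.028 in Psmc2, 0.127 in Psmd13, 0.025 in Psmd5, 0.099 in Psmd14, 0.138 in Psmb9, 0.065 in Psmd11, 0.023 in Psmb1 and 0.086 in Psmb3. It was higher in Psmb8, at 0.158. Without replicate 1 the SD was lower in 3 of the 9 genes, and without replicate 3 in 4. The 9 genes were picked by their SD over the same arrays, and no share over all detected named genes was computed. Leaving out the array furthest from the others always lowers the SD of 3 values. These counts therefore do not single out an array, and the source of the spread was not tested. For the immunoproteasome genes among these 9, the lowest values were 0.071 in Psmb9 without replicate 1 and 0.060 in Psmb8 without replicate 3.

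Across the detected members, the median difference was 0.07 log2 units for replicate 2 minus replicate 1, 0.02 for replicate 3 minus 1 and -0.03 for replicate 3 minus 2. Over all detected named genes, the same medians were 0.03, 0.01 and -0.03. Replicate 1 was the lowest array in 18 of 38 members (47.4%, beside 37.1% of all detected named genes), replicate 2 in 10 (26.3%, beside 27.4%) and replicate 3 in 10 (26.3%, beside 35.5%). In the brightest group of named genes, the shares for replicates 1, 2 and 3 were 36.5%, 22.6% and 40.9%. These orders depend on the scale. With quantile normalization, replicates 1, 2 and 3 were the lowest in 11, 13 and 14 members, and shares over all genes were not computed there. Scaling by the median of each array shifts all genes of an array alike. The median of replicate 3 minus 2 was then 0.065 in the members and 0.0626 in all detected named genes.

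Of the 39 genes, 8 had a second probe for the same accession, and both probes of each gene gave the same detection call. Their mean levels lay 0.19 to 3.27 log2 units apart, with a median of 1.40, and the gap was widest in Psmd12. Its first probe gave 6.38, 6.35 and 6.41 and its second 3.14, 3.29 and 2.91. In Psmd9 the probes were 1.97 apart, with 1.82, 1.94 and 1.88 on the first and -0.09, -0.03 and -0.14 on the second. In 7 of the 8 genes, all but Psmc2, the distance between the probes was larger than the SD over arrays, which bears on every level given here.

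In Psmb5 the second probe gave 5.93, 6.14 and 5.97, a gap of 1.83, and in both probes replicate 2 was the highest, but the second lay in a block of that array with non-uniform spots. Psmc1, with 6.99, 7.09 and 6.95 on the first probe and 5.51, 5.65 and 5.54 on the second, had a gap of 1.44. Psmc3, with 7.45, 7.50 and 7.42 on the first and 6.05, 6.17 and 6.09 on the second, had a gap of 1.36. Replicate 2 was the highest array on both probes of these genes too. The gaps of Psma4, Psmd10 and Psmc2 were 0.46, 0.31 and 0.19.

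**Figure D4:**
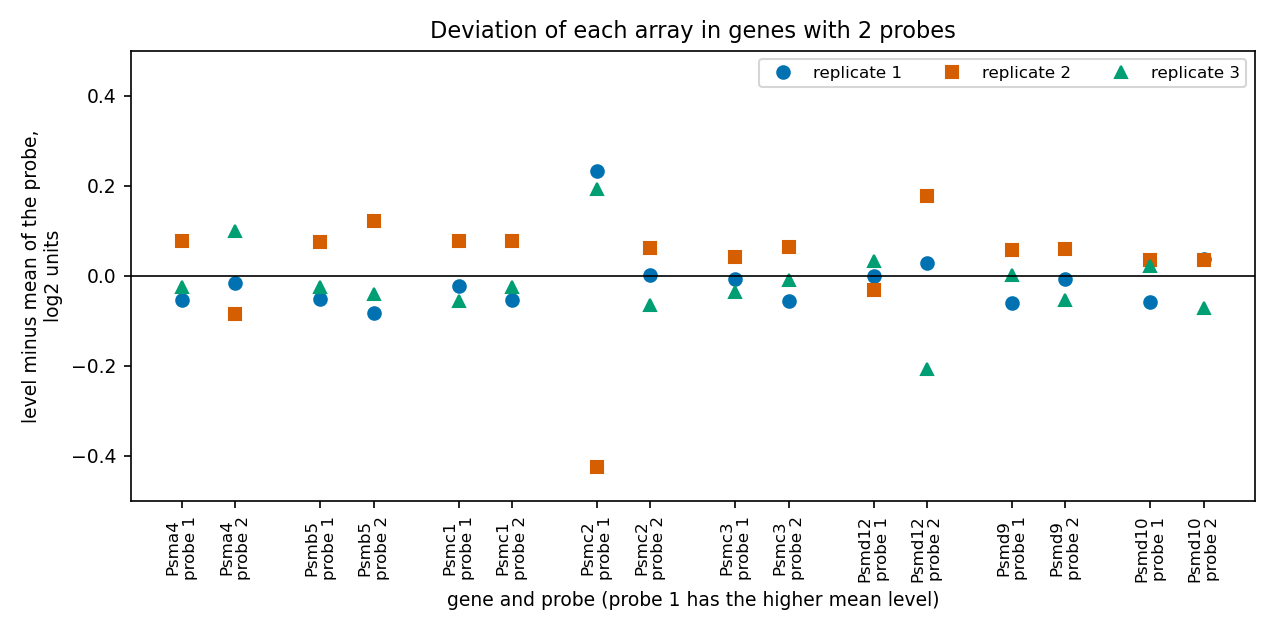
Level of each array minus the mean of the probe (log2 units) for both probes of the 8 genes with 2 probes; points are the 3 arrays. Replicate 2 lay below the mean on the first probe of Psmc2 and above it on the second, and the probe pairs of Psmb5, Psmc1 and Psmc3 had replicate 2 as the highest array on both.

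Other genes of the pathway were read from fixed lists. All 5 genes of activators and inhibitor were detected, among them Psme1 (3.89 ± 0.06) and Psme2 (5.04 ± 0.06), which form the activator PA28 that is induced by interferon gamma, Psme3 (2.10 ± 0.08) and the inhibitor Psmf1 (0.59 ± 0.03). The activator gene Psme4 gave 2.08, 1.05 and 2.15, and its spot lay in a block of replicate 2 with non-uniform spots, as did that of Psme1. All 5 chaperones of core assembly were detected, among them Pomp (5.32 ± 0.08), which is known to act in the maturation of beta subunits, and Psmg1 (6.12 ± 0.07).

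All 10 partners with other names were detected, and 8 of them lay above the 75th percentile on all arrays. Sem1, a small lid subunit, gave 6.95 ± 0.07, the ubiquitin receptor Adrm1 (its spot in such a block too) gave 4.96 ± 0.03 and the deubiquitinase Usp14 gave 5.30 with an SD of 0.0025. The adaptor Ecpas, at -1.96 ± 0.08, lay below it. Of the regulators, Nfe2l1, which is known to drive proteasome genes when the protease is inhibited, gave -0.69 ± 0.06 and the related Nfe2l2 gave 3.90 ± 0.05, and all 4 genes of that list were detected. The ubiquitin genes Ubb and Rps27a were detected at levels of 8.56 ± 0.06 and 9.22 ± 0.05, and processed copies of these genes may share signal.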

How the data were processed

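RNA of 3 cultures of PD-treated J1 mESCs was hybridised in 1 colour (Cy3), each to its own Agilent array. Per the file headers, the deposited intensity values were made with Agilent Feature Extraction 10.7.3.1, which subtracted the background, removed trends within each array and flagged spots; the grid refers to mm9. No step between arrays was applied to these intensities. A log2 table deposited by the authors was an alternative, and its normalization is not given in the sources used here. By accession, 27229 of 55681 non-control probes (48.9%) were matched to a RefSeq symbol of GRCm38.p6.

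The log2 processed signal was averaged over spots without outlier flags, and the 75th percentile of the array was subtracted. Where a gene had several probes, the one with the highest mean stood for it. Detection required at least 50% of the spots of a probe to be well above background. The number of arrays limits the precision. The labels number the samples as replicates, and the methods describe independent experiments. Named were all members, with values per array for catalytic and tissue-restricted subunits, undetected genes, the 5 largest SDs and the 5 widest probe gaps. The members, their roles, 6 pathway lists and 5 marker lists were chosen with earlier results of these data known, and some genes of these lists are not reported here. Alternatives were other scalings, normexp with an offset of 50 on median signals (limma 3.58.1, R 4.3.3), other detection and probe rules, values from the deposited table, and omission of each replicate in turn. Scripts ran in Python 3.11.15 and were tested on simulated data.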

Additional observations from a re-analysis of the deposited data

How the results depend on the processing

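The median level of the members detected, 5.58, was 9.32 with the median of each array as the scale, 3.66 with the 75th percentile over detected probes, 5.34 with normexp, 5.27 with the mean of the probes of a gene and 5.47 without the filter on detection. Scaling by the median or by detected probes shifts every gene of an array by the same amount, since the reference point of the level differs. The median difference of replicate 3 minus 2, -0.03, was 0.065 with the median of each array, and over all detected named genes it moved alike, from -0.0276 to 0.0626. That of replicate 3 minus 1, 0.02, was -0.010 with quantile normalization, -0.021 with normexp and -0.009 in the deposited table. The cause of these last changes was not tested. Leaving out 1 replicate at a time gave median levels of 5.55 to 5.60 and median SDs of 0.033 (without replicate 2) to 0.071. The counts of 38 detected members and 0 members with a range over 1 log2 unit were bound to stay. Leaving out an array cannot widen a range or undo a detection, and Psmb11 was detected on 0 arrays. The count of 38 detected genes did not depend on the flag or share of spots used, and counted by probe it was 46 of 47. Without the blocks of non-uniform spots, an alternative chosen after seeing the data, Psmc2 was 5.65 ± 0.06, and with normexp its other probe was the brighter one and gave 5.56 ± 0.07. A comparison of arrays by spots was not run, because 0 of 47 member probes had 10 spots. No paired analysis was possible because the samples form 1 group. With 3 arrays, 1 spot per probe and no untreated samples analysed here, small differences between arrays could not be separated from spot error.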
